A study of Mus musculus with 39 samples.

Results

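Growth hormone-dependent liver genes were followed here as a fixed list of 10 genes, Hsd3b5, Mup11, Mup20, Mup3, Elovl3, Cyp7b1, Igf1, Igfals, Socs2 and Ghr, out of 24537 genes with a symbol in the table for kidney, liver and lung and 52508 in the table for skin. They were chosen by name with earlier results of these livers known, in which Hsd3b5 and Mup11 were among the genes that differed most between ABT-737 and vehicle, so the liver values of the 10 genes are given as a description and no p-value is read from them. RNA came from male C57BL/6 mice that all lacked Prf1, the gene of perforin, in the young controls as much as in the old mice. The old mice received ABT-737, an inhibitor of anti-apoptotic BCL-2 family proteins, at 25 mg/kg by intraperitoneal injection, or a DMSO-based vehicle, on 2 consecutive days of each month for 2 months from 18 months of age, and were 20 months old at analysis. The young mice were 3 months old and untreated. Liver, kidney and lung each had 4 young, 3 vehicle-treated and 3 ABT-737-treated mice, and skin had 3 of each. The young mice thus differed from both old groups in age and in having had no injections, which cannot be told apart, and no mouse with intact perforin was analysed here. The drug label of ABT-737 replicates 4 and 5 reads ABT-738 and ABT-739, and their titles give ABT-737.

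Growth hormone is released by the pituitary in pulses that differ between the sexes. It binds its receptor on hepatocytes, the receptor activates the kinase JAK2 and the transcription factor STAT5B, and STAT5B drives liver genes that include those of the circulating growth factor IGF-1 and its carrier proteins, and of SOCS2 and CISH, which dampen the signal in turn. In male mice the widely spaced pulses also sustain a group of male-biased liver genes, among them Hsd3b5, Elovl3, Cyp7b1 and many genes for major urinary proteins (MUPs), the small pheromone carriers that the liver secretes and the kidney passes into urine.

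Libraries were read at the 3′ ends of transcripts, and levels are given as CPM, the field's usual counts scaled to a common library size. Liver was the shallowest tissue, with 223957 to 891116 counts per library (median 547867), so that 1 count was worth 1.17 to 4.36 CPM. Vehicle replicate 3 was the shallowest liver and stood apart from the other vehicle-treated livers in Elovl3 and in acute-phase genes, and results that rest on it are given with and without it. The label of the tissue was checked on 15 hepatocyte markers. Their summed level was 118575 to 157468 CPM in the 10 livers, and all 15 passed edgeR's expression filter. Because whole tissue was sequenced, fewer cells of a type and less RNA per cell cannot be told apart in any of these values. In young mice, Hsd3b5, Mup11, Mup20 and Elovl3 had no more than 3 counts in any kidney or lung library. Mup3 had 0 counts in young kidney and at most 14 in young lung, against 1142 to 3096 in young liver.

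The MUP genes lie in a cluster on chromosome 4 and resemble each other closely, in their promoters as well as in their transcripts. The 300 bases around the annotated starts of Mup11 (GRCm38, chr4:60662346-60662645, minus strand) and Mup3 (chr4:62087268-62087567, minus strand) are shown because both genes were low in the same livers. Each runs from 250 bases before the start to 50 bases after it, and the capitals mark the longest run of letters that both share, 28 bases that hold a TATA box. These are RefSeq sequences.
Mup11: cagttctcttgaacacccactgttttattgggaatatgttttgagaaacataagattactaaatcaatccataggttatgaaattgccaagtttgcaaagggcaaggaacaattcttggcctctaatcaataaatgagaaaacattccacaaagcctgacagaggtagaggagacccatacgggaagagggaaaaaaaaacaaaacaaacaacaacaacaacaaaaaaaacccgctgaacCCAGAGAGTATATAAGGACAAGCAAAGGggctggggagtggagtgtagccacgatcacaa
Mup3: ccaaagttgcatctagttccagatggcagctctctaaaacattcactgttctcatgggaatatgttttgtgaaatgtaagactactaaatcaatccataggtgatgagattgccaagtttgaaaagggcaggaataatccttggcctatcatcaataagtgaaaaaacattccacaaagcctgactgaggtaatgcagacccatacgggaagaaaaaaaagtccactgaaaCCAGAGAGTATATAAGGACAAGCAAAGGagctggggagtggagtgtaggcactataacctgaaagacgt
The shared run begins 10 bases before the annotated start of Mup11 and 19 bases before that of Mup3, and the aligned parts of these windows are identical at 87.5% of bases.

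The windows of 6 of the 10 genes were in the reference table, 9 windows in all, and were searched for TTCNNNGAA, the palindromic core that STAT5 proteins bind, which reads the same on both strands. It was found in 2 windows, both of Igfals, as TTCTCAGAA beginning 236 bases before 1 annotated start (chr17:24877594-24877893, plus strand) and as TTCCTAGAA beginning 58 bases before another (chr17:24877981-24878280, plus strand). Of all 32851 promoter windows in the table, 8.3% held the motif. The windows of Hsd3b5, Mup11, Mup3, Igf1 and Ghr did not hold these letters. Mup20, Elovl3, Cyp7b1 and Socs2 had no window.

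Hsd3b5 and Mup11 were nearly absent from vehicle-treated old livers and present in every young and every ABT-737-treated liver. Hsd3b5 encodes a male-biased 3-ketosteroid reductase of the hydroxysteroid dehydrogenase family (NM_008295, mm10 chromosome 3, 98618636 to 98645534, minus strand). It had 352, 303, 306 and 284 CPM in the 4 young livers. It had 13.1, 0 and 1.28 CPM in vehicle replicates 3, 4 and 5, which were 3, 0 and 1 counts. With ABT-737 it had 19.8, 98.6 and 69.3 CPM, from 5, 52 and 28 counts, and every treated liver lay above every vehicle-treated one and below every young one. The gap between treated and vehicle-treated livers rests on 5 against 3 counts in replicate 3 of each, the shallowest library of either group. With vehicle at the floor of 3 counts per library, Hsd3b5 was at least 9.18-fold higher with ABT-737 than with vehicle, and at least 45.6-fold lower with vehicle than in young livers.

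Mup11 (NM_001164526, chromosome 4, 60658466 to 60662395, minus strand) followed the same order. Its level was 213, 215, 89.1 and 111 CPM in young livers, and 0, 1.17 and 1.28 CPM in vehicle-treated livers, from 0, 1 and 1 counts. The ABT-737-treated livers had 91.1, 72.1 and 44.6 CPM, from 23, 38 and 18 counts. Treated livers did not overlap vehicle-treated livers, and 1 of the 3 lay within the range of young livers. The bounds were at least 10.2-fold higher with ABT-737 than with vehicle and at least 23.0-fold lower with vehicle than in young livers.

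Mup3, which took most of the MUP counts in these livers (NM_001039544, chromosome 4, 62083476 to 62087312, minus strand), had 5995, 3402, 1754 and 2346 CPM in young livers. Vehicle-treated livers had 1122, 516 and 1463 CPM, all below the lowest young liver. ABT-737-treated livers had 5402, 4141 and 2528 CPM, all within the young range and above the vehicle range. The fitted log2 difference was 1.96 (SE 0.46) between ABT-737 and vehicle and -1.71 (SE 0.44) between vehicle and young.

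Mup20, which encodes the male pheromone darcin (NM_001012323, chromosome 4, 62050235 to 62054117, minus strand), had only 1 to 8 counts in any liver and did not pass the expression filter. Its groups overlapped, at 7.83 ± 5.12 CPM (SD, n = 4) in young livers, 7.14 ± 2.55 (SD, n = 3) with vehicle and 8.97 ± 2.53 (SD, n = 3) with ABT-737. Differences in Mup20 were not detectable at this depth.

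**Figure D1:**
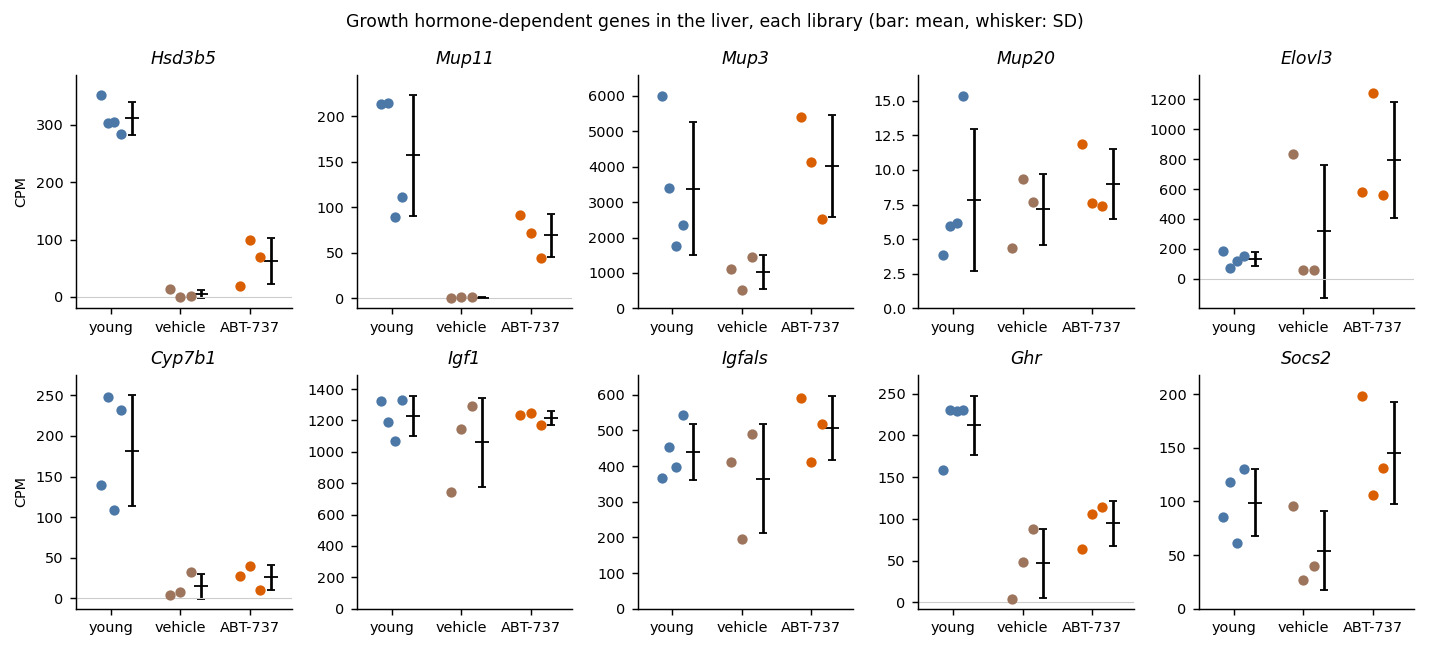
Level in CPM of the 10 genes in each of the 10 liver libraries, with the mean and SD of each group beside the points and 1 linear axis per gene. Hsd3b5 and Mup11 lie near 0 in the 3 vehicle-treated livers, Mup3 lies within the young range in all 3 ABT-737-treated livers, and Elovl3 is at 834 CPM in vehicle replicate 3 alone of the vehicle group.

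Single MUP genes cannot be told apart with confidence from their 3′ ends. The transcripts of Mup11 and Mup3 are identical at 87.1% of aligned bases. Of the 451 stretches of 50 bases in the last 500 bases of the Mup11 transcript, 78.5% also occur in other genes of the GENCODE annotation, most often in Mup16. The share was 27.7% for Mup20 and 16% for Mup3, and 0% for each of the other 7 genes on the list. All 21 MUP genes were therefore also summed to 1 feature, which does not depend on how counted reads were split among them. For 9 of the 21, every such stretch also occurs in other genes. Any reads left uncounted because they match several genes are missing from the sum. Mup3 made up most of it, so it is close to a repeat of Mup3. The sum was 3886 ± 2048 CPM (SD, n = 4) in young livers, 1158 ± 533 (SD, n = 3) with vehicle and 4426 ± 1495 (SD, n = 3) with ABT-737. ABT-737 and vehicle did not overlap, with a log2 difference of 1.94 (SE 0.45), and neither did vehicle and young, at -1.75 (SE 0.43). Counts assigned to MUP genes made up 0.203 to 0.647% of all counts in young livers, 0.0554 to 0.141% in vehicle-treated livers and 0.269 to 0.549% in ABT-737-treated livers.

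Cyp7b1 and Ghr were low in both old groups. Cyp7b1 (NM_007825, chromosome 3, 18071950 to 18243338, minus strand) encodes oxysterol 7-alpha-hydroxylase, an enzyme of the alternative bile acid pathway that is male-biased in mouse liver. It had 139, 247, 109 and 232 CPM in young livers. It had 4.36, 8.19 and 32.1 CPM with vehicle and 27.7, 39.8 and 9.90 CPM with ABT-737. Every old liver lay below every young liver, and the treated and vehicle-treated livers overlapped. Its log2 difference was -3.38 (SE 0.49) between vehicle and young, -2.77 (SE 0.48) between ABT-737 and young, and 0.61 (SE 0.62) between ABT-737 and vehicle.

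Ghr, the gene of the growth hormone receptor itself (NM_001048178, chromosome 15, 3327525 to 3583352, minus strand), had 159, 231, 229 and 230 CPM in young livers. It had 4.36, 48.0 and 87.3 CPM with vehicle, the first from 1 count in vehicle replicate 3, and 63.4, 106 and 114 CPM with ABT-737. All 6 old livers lay below the lowest young liver. The log2 difference was -1.98 (SE 0.40) between vehicle and young, -1.13 (SE 0.38) between ABT-737 and young and 0.84 (SE 0.44) between ABT-737 and vehicle, and the last had overlapping groups. Without vehicle replicate 3, Ghr differed by -1.65 between vehicle and young and by 0.54 between ABT-737 and vehicle. The transcript counted for Ghr, 1324 bases long, ended at 3327525, and that of the skin table at 3325525. The annotated gene reaches on to 3317755. With libraries read at 3′ ends, transcripts that end beyond these points would be missed in every tissue. Ghr values thus cover the counted part only and may leave out transcripts of the receptor.

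Socs2 was higher in every ABT-737-treated liver than in any vehicle-treated one, and Elovl3 was higher than in 2 of the 3. Socs2 (NM_001168655, chromosome 10, 95411490 to 95416212, minus strand), the STAT5 target that limits growth hormone signalling, had 85.2, 118, 61.4 and 130 CPM in young livers. It had 96.0, 26.9 and 39.8 CPM with vehicle and 198, 106 and 131 CPM with ABT-737. Treated and vehicle-treated livers did not overlap, whereas 1 of the 3 vehicle-treated livers, replicate 3, fell within the young range. The log2 difference was 1.61 (SE 0.41) between ABT-737 and vehicle and -1.09 (SE 0.39) between vehicle and young, and without vehicle replicate 3 these were 2.08 and -1.56.

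Elovl3, a fatty acid elongase that is male-biased in liver and also made in brown fat and in the sebaceous glands of skin, lies on chromosome 19 from 46131899 to 46135694 on the plus strand (NM_007703). An exon of Pitx3 overlaps it on the opposite strand, and since it is not stated that counting used strand, reads of these genes cannot be separated. Elovl3 had 188, 70.0, 120 and 152 CPM in young livers and 583, 1242 and 559 CPM in ABT-737-treated livers, which did not overlap. Vehicle-treated livers had 834, 59.7 and 57.8 CPM, so replicate 3 lay among the treated livers and the other 2 lay below every young liver. With all libraries Elovl3 was 1.15 (SE 0.70) higher on the log2 scale with vehicle than in young livers, and without vehicle replicate 3 this turned to -1.15. The difference between ABT-737 and vehicle was 1.45 (SE 0.74) with that library and 3.77 without it.

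Igf1 and Igfals, the endocrine output of the pathway, had overlapping levels in all 3 groups. Igf1, the gene of insulin-like growth factor 1 (NM_010512, chromosome 10, 87859052 to 87937047, plus strand), had 1326, 1189, 1069 and 1333 CPM in young livers. It had 746, 1146 and 1293 CPM with vehicle and 1232, 1248 and 1169 CPM with ABT-737. All 3 treated livers and 2 of the 3 vehicle-treated livers lay within the young range. Igfals, whose product holds IGF-1 in its circulating complex (NM_008340, chromosome 17, 24878770 to 24882008, plus strand), had 366, 455, 396 and 543 CPM in young livers. It had 410.2, 195 and 489 CPM with vehicle and 590.5, 412 and 517 CPM with ABT-737. Between vehicle and young, Igf1 differed by -0.21 (SE 0.23) and Igfals by -0.28 (SE 0.28) on the log2 scale. Between ABT-737 and vehicle, they differed by 0.19 (SE 0.25) and 0.48 (SE 0.31).

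**Figure D2:**
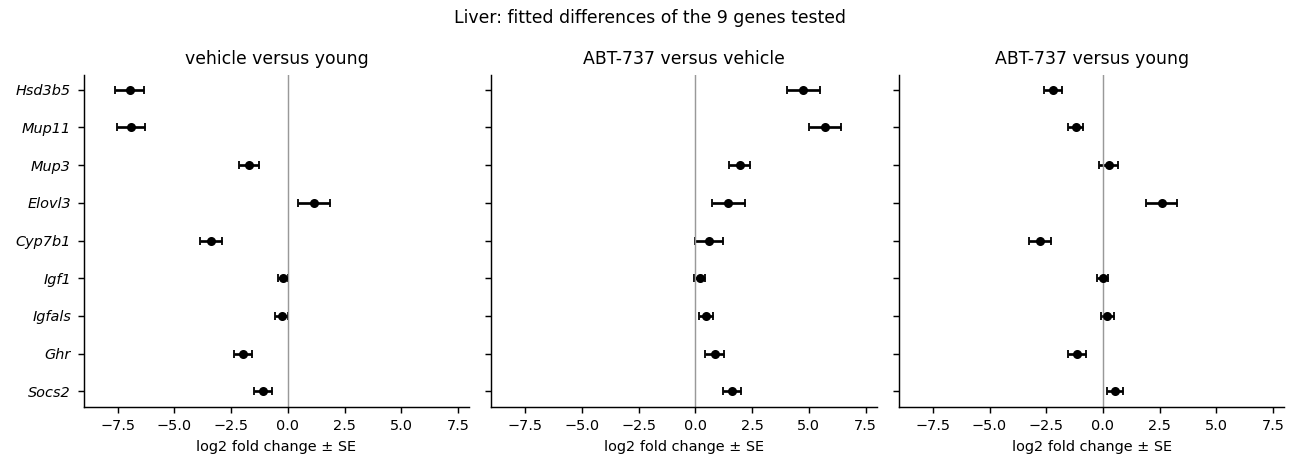
Fitted log2 fold change (x axis, bars are SE) of the 9 genes that passed edgeR's expression filter in liver, for vehicle versus young (4 young, 3 vehicle-treated), ABT-737 versus vehicle (3 each) and ABT-737 versus young. Hsd3b5 and Mup11 lie farthest from 0 in the first 2 panels, where vehicle was at the floor and the fitted size depends on the prior count, and Igf1 and Igfals lie nearest to 0 in all 3.

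By edgeR's quasi-likelihood test with an adjusted p under 0.05 as the threshold, 4 of the 9 genes that passed the filter were higher with ABT-737 than with vehicle (Hsd3b5, Mup11, Mup3 and Socs2), and 0 were lower, where 3.85% of the 5583 genes tested in liver passed in either direction. Between vehicle and young, 5 were lower (Hsd3b5, Mup11, Mup3, Cyp7b1 and Ghr), beside 10.8% of all genes tested. Between ABT-737 and young, Elovl3 was higher, beside 3.13%, and Hsd3b5, Mup11 and Cyp7b1 were lower, beside 5.27%. These liver contrasts are the ones known when the genes were chosen, so the counts are given as a description and nothing is read from them. The same 4 genes had no overlap between ABT-737 and vehicle, beside 8.47% of all genes that were higher in this way. The same 5 genes had no overlap between vehicle and young, beside 16.9% that were lower. Hsd3b5 and Mup11 passed between ABT-737 and vehicle whichever library was left out. They were the only 2 to pass without vehicle replicate 4 or ABT-737 replicate 3 or 4. Both were known to be among the genes differing most here when chosen, so this too is only a description. With only the 2 groups compared, Mup11 and Mup3 passed, and with at least 10 counts in every library Mup3 and Socs2 did. Without vehicle replicate 3, 5 genes passed between ABT-737 and vehicle and 7 between vehicle and young. Over all genes tested, those that passed also rose in that fit, from 215 to 529 and from 1261 to 1486. Without young replicate 2 or ABT-737 replicate 4 or 5, 2 of the genes on the list passed between ABT-737 and young. The median log2 difference of the 9 genes was 1.45 between ABT-737 and vehicle, -1.71 between vehicle and young and -0.02 between ABT-737 and young, and the first 2 were the same with Hsd3b5 and Mup11 at their bounds. Over all genes tested the medians were -0.03, 0.02 and -0.001. Hsd3b5 and Mup11 had to be high in young or treated livers to pass the filter at all. The first 2 comparisons share the vehicle-treated livers.

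Other genes known to depend on growth hormone were taken from lists that do not hold these 10 genes. These lists too were chosen with earlier results of these data known, so their p-values are not independent of that choice. Over all genes tested in liver, 10.8% were lower with vehicle than in young livers. Between ABT-737 and vehicle, 3.85% passed in either direction. Of 15 male-biased genes, 10 passed the filter in liver. Between vehicle and young, 7 of the 10 fell and 0 rose (median -1.14, edgeR adjusted p under 0.05). Those with the largest changes were Slco1a1, an organic anion uptake carrier (-3.02, SE 0.49, adjusted p = 0.000452), Cyp4a12b (-2.95, SE 0.64, adjusted p = 0.00377) and Cyp4a12a (-2.66, SE 0.36, adjusted p = 0.000136), fatty acid hydroxylases, and the selenium-binding protein gene Selenbp2 (-2.33, SE 0.35, adjusted p = 0.000273). Summed, the list was at 26886 to 36366 CPM in young livers, 8815 to 20578 with vehicle and 17149 to 24211 with ABT-737. Treated livers thus overlapped vehicle-treated ones and lay below all young ones. Between ABT-737 and young, 1 of the 10 was lower and 0 were higher (median -0.40). Between ABT-737 and vehicle, 3 of the 10 rose and 0 fell (median 0.86). The 3 that rose were Cyp4a12b (2.55, SE 0.68, adjusted p = 0.0481), Cyp4a12a (2.27, SE 0.38, adjusted p = 0.00313) and Slco1a1 (2.04, SE 0.51, adjusted p = 0.0333). Cyp4a12a had 330 ± 103 CPM (SD, n = 4) in young livers, 51.4 ± 21.6 (SD, n = 3) with vehicle and 247 ± 92.2 (SD, n = 3) with ABT-737. Selenbp2 differed by 1.03 (SE 0.35, adjusted p = 0.132) between ABT-737 and vehicle, which did not pass. The count of 3 was 1 without any 1 of the young livers or ABT-737 replicate 4, and 5 without vehicle replicate 3.

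Of the other MUP genes, 6 were tested. Mup12 and Mup21 rose with ABT-737 (3.46, SE 0.66, adjusted p = 0.00635, and 1.94, SE 0.52, adjusted p = 0.0463), and Mup18, Mup13, Mup12 and Mup21 were lower with vehicle than in young livers, beginning with Mup18 at -4.83 (SE 0.82, adjusted p = 0.000691). Vehicle was at the floor for Mup12 and Mup18. Mup12 was at least 5.59-fold higher with ABT-737 and at least 4.23-fold lower with vehicle than in young livers, and Mup18 at least 5.48-fold lower. The median of the 6 genes between ABT-737 and vehicle was 1.79, and 1.53 with these genes at their bounds. Like the genes on the list, they may share reads. Without vehicle replicate 3, more of the other MUP genes passed the filter, and 4 rose with ABT-737 and 7 were lower with vehicle than in young livers. Without ABT-737 replicate 4, 0 rose in edgeR's test, and without any other library 1 did. Those lower with vehicle than in young livers numbered 1 without young replicate 1 or 2 and 2 without young replicate 3.

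Female-biased genes, which growth hormone restrains in males, were mostly too low to test, with 3 of 32 tested. Cyp17a1, a steroid hydroxylase, was higher with vehicle than in young livers (2.93, SE 0.57, adjusted p = 0.00181) and fell with ABT-737 (-2.64, SE 0.66, adjusted p = 0.0356), with overlapping groups in both. The second call was lost without any 1 of young replicate 4, vehicle replicates 4 and 5 and the 3 treated livers. Hamp2, a hepcidin gene, was lower with vehicle than in young livers (-1.31, SE 0.41, adjusted p = 0.0298), which was lost without young replicate 3 or vehicle replicate 4 or 5.

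Genes of the receptor's own signalling chain moved in both directions. Of 15 tested, 7 were higher and 1 lower with vehicle than in young livers, and 3 fell and 0 rose with ABT-737. The 1 that was lower was Cish, the other classic STAT5-induced inhibitor beside Socs2, which had 130 ± 25.1 CPM (SD, n = 4) in young and 18.1 ± 7.59 (SD, n = 3) in vehicle-treated livers (-2.92, SE 0.40, adjusted p = 0.000137). With ABT-737 it had 47.8 ± 26.8 CPM (SD, n = 3), a difference from vehicle of 1.45 (SE 0.47, adjusted p = 0.109) that did not pass. Among those higher with vehicle were Irs2, an insulin receptor substrate (2.42, SE 0.40, adjusted p = 0.000603), the phosphatase gene Ptpn1 (1.71, SE 0.33, adjusted p = 0.00167) and Stat3, which mediates IL-6 signals (1.59, SE 0.28, adjusted p = 0.000904). Socs3, an inhibitor induced by IL-6 (-2.00, SE 0.51, adjusted p = 0.0388), and Ptpn6, a phosphatase mainly of blood cells (-1.69, SE 0.31, adjusted p = 0.00483), were among the 3 that fell with ABT-737. Without vehicle replicate 3, 1 rose and 3 fell. Of the 3, 1 fell when treated replicate 3 was left out and 0 when treated replicate 4 was. In the IGF axis, 0 of 6 genes passed edgeR's test between ABT-737 and vehicle, of which 1 had an unadjusted p under 0.05, and DESeq2 called 0. Igfbp1 (2.25, SE 0.53, adjusted p = 0.00706) and Igfbp3 (1.13, SE 0.38, adjusted p = 0.0436), genes of IGF-binding proteins, were higher with vehicle than in young livers, and neither passed without vehicle replicate 4. Without vehicle replicate 3, 1 gene of the IGF axis fell with ABT-737, and 1 was higher and 1 lower with vehicle than in young livers.

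Liver transcription factors and bile acid enzymes gave few calls between ABT-737 and vehicle and more between vehicle and young. Onecut1 (HNF6), a hepatocyte factor known to respond to growth hormone, had 65.2 ± 26.6 CPM (SD, n = 4) in young livers, 13.3 ± 7.82 (SD, n = 3) with vehicle and 70.3 ± 24.6 (SD, n = 3) with ABT-737. It was lower with vehicle than in young livers (-2.53, SE 0.45, adjusted p = 0.000958) and rose with ABT-737 (2.63, SE 0.48, adjusted p = 0.00522). Ppara, the receptor that drives fatty acid oxidation, rose with ABT-737 (0.82, SE 0.22, adjusted p = 0.0493), and 2 of 16 factors rose in all, 1 without most single libraries and 0 without ABT-737 replicate 4. Between vehicle and young, 3 were lower, which beside Onecut1 were Foxa2 and Cebpa (-1.39 and -0.93), and 2 were higher, among them Nr1i2. Of 9 bile acid and sterol genes, Cyp8b1, the sterol 12-alpha-hydroxylase, rose with ABT-737 (1.34, SE 0.32, adjusted p = 0.0252), and no gene of this list did without young replicate 4, vehicle replicate 4 or ABT-737 replicate 3. Slc10a1, the bile acid importer, Cyp7a1, the rate-limiting enzyme of the classic pathway, Hsd3b7 and Baat were lower with vehicle than in young livers, with log2 differences of -2.90, -1.73, -1.52 and -0.89, and 2 of the 4 were without young replicate 3 or vehicle replicate 4. Of 6 relatives of Hsd3b5 and Elovl3, Elovl6, Hsd3b3 and Elovl2 were lower with vehicle than in young livers (-1.33, -1.23 and -1.02), 1 of the 3 without young replicate 3. Between ABT-737 and vehicle 0 of them passed edgeR's test, 0 had an unadjusted p under 0.05 and DESeq2 called 0.

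**Figure D3:**
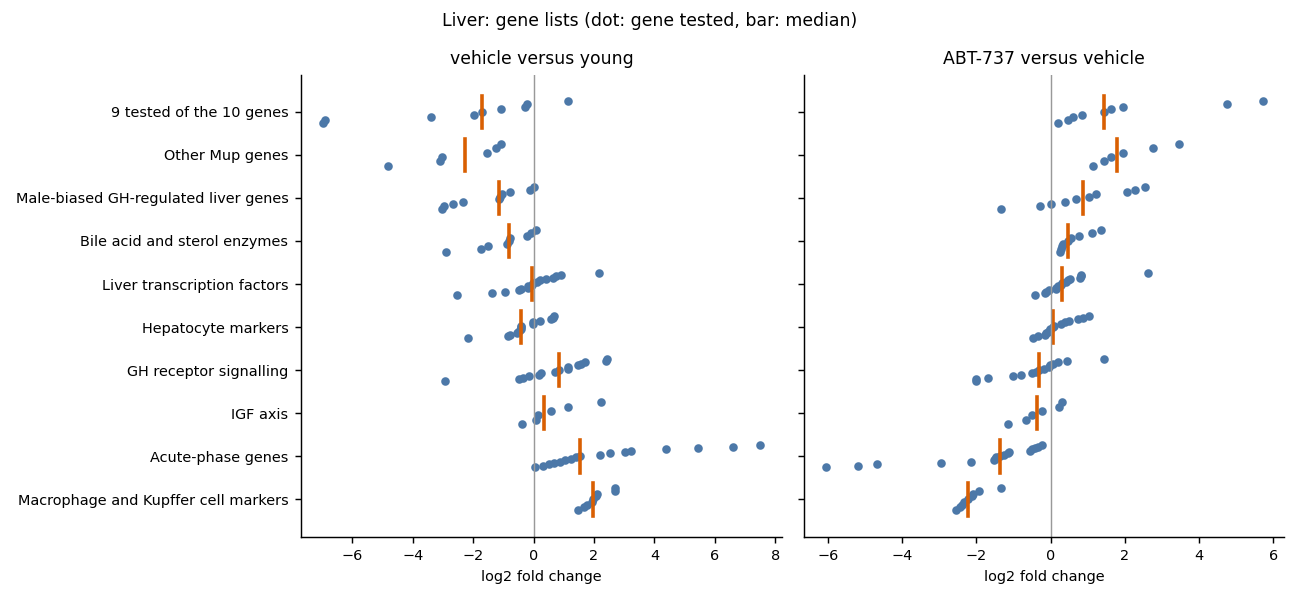
Log2 fold change of each gene tested in liver (dots) and the median of each list (bars), for vehicle versus young and ABT-737 versus vehicle, with 3 or 4 mice per group. The 10-gene list (9 tested), other MUP genes and male-biased genes have medians below 0 in the first panel and above 0 in the second, and acute-phase and macrophage genes have the opposite.

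Markers of inflammation and of immune cells differed between the same livers, in the opposite direction. Of 17 acute-phase genes tested, 13 were higher with vehicle than in young livers and 9 fell with ABT-737. The count of 9 was 14 without vehicle replicate 3, 4 without treated replicate 5 and 1 without treated replicate 4. Saa2 and Saa1, the serum amyloid A genes, and Lcn2 differed most between vehicle and young (6.59, SE 1.05, 5.43, SE 0.90, and 7.49, SE 0.97). The summed level of the 18 acute-phase genes was 27871 to 38687 CPM in young livers and 35347 to 54086 CPM in ABT-737-treated livers. In vehicle replicates 3, 4 and 5 it was 48179, 104557 and 145149 CPM, so replicate 3, the liver with 834 CPM of Elovl3, was within the treated range. All 9 Kupffer cell and macrophage markers tested were higher with vehicle than in young livers, and 8 of the 9 fell with ABT-737, led by C1qc (-2.54, SE 0.27, adjusted p = 0.00014), Cd5l, C1qa and Csf1r, or 5 of the 9 without ABT-737 replicate 4. Their summed level, for all 12 listed, was 521 to 694 CPM in young livers, 2213 to 2805 with vehicle and 400 to 725 with ABT-737, with no overlap between vehicle and either other group. Summed lymphocyte markers were 8.94 to 17.3 CPM in young livers, 87.3 to 210 with vehicle and 19.0 to 39.6 with ABT-737. Haemoglobin and other blood cell markers summed to 516 to 1644, 3947 to 4552 and 1597 to 3583 CPM in the same order.

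General hepatocyte markers overlapped between the groups. Summed, they were at 128376 to 145336 CPM in young livers, 118575 to 140533 with vehicle and 136331 to 157468 with ABT-737. Of the 15, 0 passed edgeR's test between ABT-737 and vehicle, 2 had an unadjusted p under 0.05 and DESeq2 called 1. Apob was lower with vehicle than in young livers (-2.16, SE 0.39, adjusted p = 0.00103). Without vehicle replicate 4, 1 hepatocyte marker rose with ABT-737 and 2 were lower and 2 higher with vehicle than in young livers. Without vehicle replicate 3, 3 hepatocyte markers rose with ABT-737 and 3 were lower and 1 higher with vehicle than in young livers. The part of these inflammatory and blood cell genes in the levels of the growth hormone-dependent genes was not tested.

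**Figure D4:**
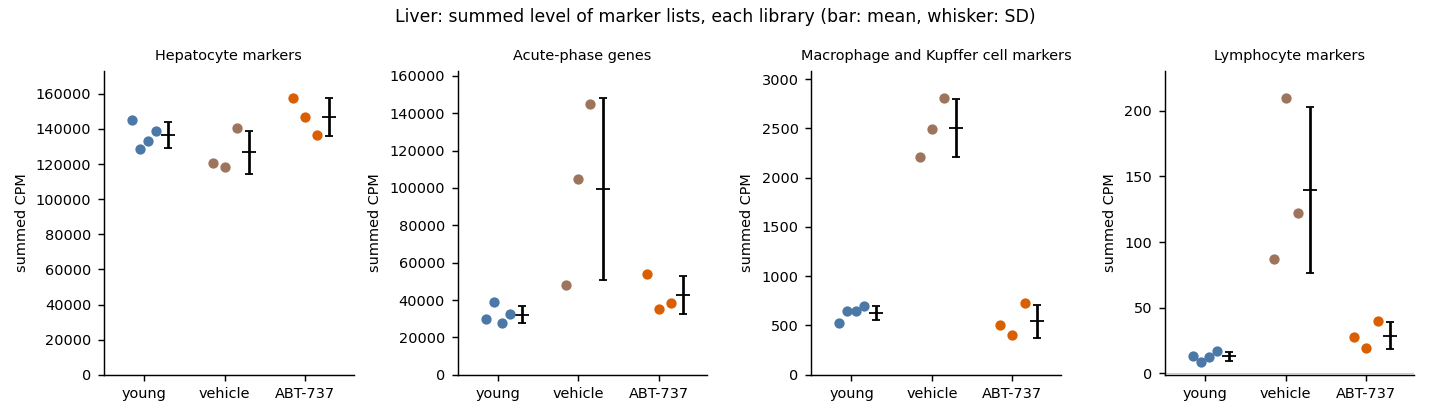
Summed CPM of 4 marker lists in each liver library, with the mean and SD of each group and linear axes. The 3 vehicle-treated livers lie above all others for macrophage and lymphocyte markers, and hepatocyte markers overlap between the groups.

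Genes of the circadian clock, which also differ between livers taken at different hours, differed in both directions between young and old livers. Of 9 tested, 3 were higher and 2 lower with vehicle than in young livers, and 2 were higher and 2 lower with ABT-737 than in young livers. Summed over all 16 listed, clock genes were at 562 to 725 CPM in young livers, 346 to 397 with vehicle and 324 to 448 with ABT-737. Dbp, a clock output gene, had 283 ± 49.1 CPM (SD, n = 4) in young livers, 8.71 ± 2.85 (SD, n = 3) with vehicle and 7.78 ± 3.32 (SD, n = 3) with ABT-737, and was lower in vehicle-treated than in young livers with a log2 difference of -5.00 (SE 0.32, adjusted p = 2.53e-07). Nr1d1 (REV-ERB alpha) was at least 9.82-fold lower with vehicle than in young livers. Between ABT-737 and vehicle, 0 of 9 clock genes passed edgeR's test, 0 had an unadjusted p under 0.05 and DESeq2 called 0. The hour at which each mouse was killed is not given in the sources used here, and its part in the comparisons with young livers was not tested.

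Of all other genes tested in liver, those whose profile over the 10 livers was most like the mean of the 9 genes were Keg1, Cyp4a12a, Mccc2, Ces1f, Gucd1, Hdac11, Mcm10 and Ttc39c. Likeness was the root mean square difference of standardised log2 CPM, which was 0.245 for Keg1, 0.249 for Cyp4a12a and 0.338 for Ttc39c, against a median of 1.32 over all other genes. Keg1 had 413 ± 40.2 CPM (SD, n = 4) in young livers, 60.7 ± 39.8 (SD, n = 3) with vehicle and 292 ± 80.4 (SD, n = 3) with ABT-737. Among the 9 genes themselves the difference from their own mean was smallest for Mup11 (0.339) and Mup3 (0.421) and largest for Igf1 (0.895) and Elovl3 (1.18).

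The choice of genes rested on the liver, and in the other tissues they were tested. Replicate numbers recur across tissues, and the labels do not say whether these tissues came from the same mice as the livers. If they did, these tests are not independent of the liver values known at the choice. In the kidney, where growth hormone also acts, Cyp7b1, Igf1, Igfals, Socs2 and Ghr were tested. Socs2 had 73.5, 67.3 and 48.8 CPM with ABT-737 and 39.3, 27.4 and 23.5 CPM with vehicle, and 33.4 to 50.7 CPM in young kidneys. The treated kidneys all lay above the vehicle-treated ones. Socs2 rose with ABT-737 by 1.06 on the log2 scale (SE 0.23, edgeR adjusted p = 0.0311), where 0.135% of the 11123 genes tested in kidney rose. This call was lost without any 1 of young replicate 4, vehicle replicates 4 and 5 and ABT-737 replicates 3 and 4, and the adjusted p ranged from 0.00303 to 0.145 over all alternatives. The other 4 genes differed by between -0.43 (Igf1) and 0.72 (Cyp7b1) and did not pass.

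Between vehicle-treated and young kidneys, Cyp7b1 and Ghr fell, 2 of the 5, beside 5.50% of all genes tested. Cyp7b1 had 52.7, 102, 135 and 191 CPM in young kidneys and 58.9, 34.2 and 26.3 CPM with vehicle, a log2 difference of -1.57 (SE 0.34, edgeR adjusted p = 0.00658) that passed under all 16 alternatives although 1 vehicle-treated kidney lay above the lowest young one. With ABT-737 it had 55.5, 74.2 and 69.6 CPM. Ghr had 224, 305, 301 and 331 CPM in young kidneys and 238, 173 and 183 CPM with vehicle (-0.55, SE 0.17, adjusted p = 0.0452), and its adjusted p ranged from 0.0171 to 0.195 over the alternatives. The call of Ghr was lost without young replicate 2, 3 or 4 or vehicle replicate 4 or 5. Macrophage markers summed to 216 to 291 CPM in young kidneys, 783 to 1342 with vehicle and 318 to 543 with ABT-737. Kidney tubule markers summed to 13803 to 15082, 13514 to 13854 and 14312 to 15967 CPM in the same order. Clock genes summed to 1035 to 1196 CPM in young kidneys, 551 to 603 with vehicle and 586 to 632 with ABT-737. The part of the macrophage and clock genes in these differences was not tested.

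Between ABT-737-treated and young kidneys 0 of the 5 genes passed edgeR's test, beside 2.12% of all genes, 2 had an unadjusted p under 0.05 and DESeq2 called 0.

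In young mice, Ghr in liver differed from Ghr in kidney by 0.18 on the log2 scale (SE 0.15, edgeR adjusted p = 0.33), which did not pass. Igf1 and Igfals were higher in liver than in kidney by 7.27 (SE 0.22) and 4.61 (SE 0.19), Cyp7b1 by 1.24 (SE 0.26) and Socs2 by 1.80 (SE 0.19).

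In the lung, Igf1, Socs2 and Ghr were tested. Socs2 was higher in young lung than in young liver (log2 difference of liver over lung -0.96, SE 0.18, edgeR adjusted p = 2.49e-05). It had 321, 307, 338 and 353 CPM in young lungs, 226, 173 and 92.4 with vehicle and 269, 199 and 201 with ABT-737, and all old lungs lay below all young ones. Its log2 difference between vehicle and young was -1.01 (SE 0.30, edgeR adjusted p = 0.0399), the only 1 of the 3 genes to pass, beside 4.73% of all 11949 genes. Blocked on the replicate number, which also ties young lungs to old ones, it was -0.95 (adjusted p = 0.175) and did not pass. The call was also lost without any 1 of the 4 young lungs or vehicle replicates 4 and 5, and the adjusted p ranged from 0.00594 to 0.175. Lung epithelium markers summed to 45161 to 57245 CPM in young and 29283 to 51970 in vehicle-treated lungs, macrophage markers to 1149 to 1482 and 3246 to 6850 CPM, and clock genes to 1508 to 1774 and 209 to 449.9 CPM. Their part in the difference of Socs2 was not tested. Igf1 had 19.1, 21.6, 14.1 and 12.5 CPM in young lungs and 31.5, 23.2 and 70.7 with vehicle, without overlap. It was higher with vehicle by 1.33 (SE 0.49, edgeR adjusted p = 0.0901), which did not pass. Between ABT-737-treated and young lungs 0 of the 3 genes passed edgeR's test, beside 2.55% of all genes, 1 had an unadjusted p under 0.05 and DESeq2 called 0. Between ABT-737 and vehicle 0 of the 3 genes passed edgeR's test, 0 had an unadjusted p under 0.05 and DESeq2 called 0. Of all genes tested in lung 0 passed, 1919 had an unadjusted p under 0.05 and DESeq2 called 328.

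In the skin, Elovl3, Igf1, Igfals, Socs2 and Ghr were tested, in a separate table whose levels are not compared with the other tissues. Igf1 had 9.41, 13.8 and 25.5 CPM in young skin, 38.2, 47.0 and 61.0 with vehicle and 34.2, 16.1 and 37.8 with ABT-737. It was higher with vehicle than in young skin by 1.56 (SE 0.41, edgeR adjusted p = 0.0418). In liver its groups overlapped, and in lung it was higher with vehicle without overlap and did not pass. Elovl3 had 18.8, 22.4 and 21.8 CPM in young skin, 106, 34.5 and 209 with vehicle and 29.3, 44.7 and 60.0 with ABT-737, a difference of 2.47 between vehicle and young (SE 0.56, adjusted p = 0.0283). These were 2 of 5 genes, beside 5.84% of the 14224 genes tested. The call of Elovl3 was lost without any 1 of the young replicates or vehicle replicate 5. That of Igf1 was lost without young replicate 1 or 2, any 1 of the vehicle replicates or ABT-737 replicate 5. The adjusted p ranged from 0.000213 to 0.953 for Elovl3 and from 0.00556 to 0.953 for Igf1. Macrophage markers summed to 226 to 720 CPM in young and 1523 to 3595 CPM in vehicle-treated skin, and clock genes to 1496 to 1577 and 254 to 562 CPM. Their part was not tested. Between ABT-737 and vehicle 0 of the 5 genes passed edgeR's test, 1 had an unadjusted p under 0.05 and DESeq2 called 0. Of all genes tested in skin 0 passed, 1134 had an unadjusted p under 0.05 and DESeq2 called 58. Between ABT-737-treated and young skin 0 of the 5 genes passed edgeR's test, beside 5.17% of all genes, 1 had an unadjusted p under 0.05 and DESeq2 called 1, Ghr, which was 1.56 higher with ABT-737 in edgeR's fit (SE 0.42, adjusted p = 0.0602).

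**Figure D5:**
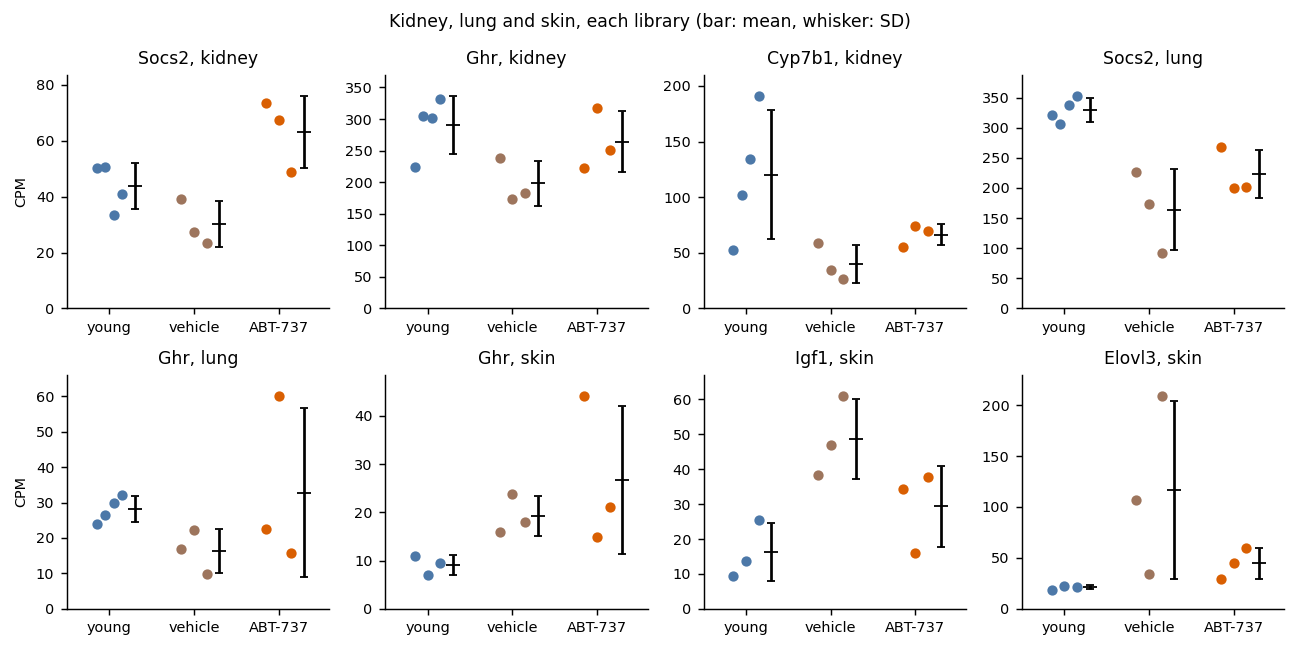
Level in CPM of genes of the list in each library of kidney, lung and skin, with the mean and SD of each group and linear axes. Socs2 is higher in all 3 ABT-737-treated kidneys than in the vehicle-treated ones, and Igf1 and Elovl3 are higher in the vehicle-treated than in the young skin samples.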

How the data were processed

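Whole liver, kidney, lung and skin RNA had been sequenced by bulk MARS-seq, which reads the 3′ ends of transcripts. The deposited values are raw counts of reads per gene, to which the authors applied no normalization. The submitters' processing notes name bcl2fastq, HISAT 0.1.5, HOMER and the build mm10. In the skin table, 82.9% of the matched transcripts had been extended by 2000 bases at the 3′ end, so skin was fitted on its own. Strand use in counting is not given in the sources used here.

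Each tissue was fitted with edgeR 4.0.16 in R 4.3.3 (filterByExpr, TMM, 3 groups in 1 quasi-likelihood fit), with Benjamini-Hochberg adjustment over all genes tested and a threshold of 0.05. The script was tested on simulated counts. CPM are counts scaled to TMM-adjusted library sizes. Bounds against a group with at most 3 counts in every library use a floor of 3 counts per library. Libraries held 1431814 to 3513311 counts in kidney, 1046508 to 2600092 in lung and 1493411 to 3842808 in skin. These totals limit precision, and no separate counting intervals are given. No 2 replicates of a group agreed within sampling noise (lowest chi-square per degree of freedom 2.40).

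Groups and replicate numbers came from the labels, which do not say that replicates with a number in common are from 1 mouse, so p-values measure the spread between these samples. Deviations of same-numbered vehicle and ABT-737 libraries correlated above 0.1 in all 3 pairs only in lung (0.176, 0.296 and 0.427). Lung vehicle replicate 4 and ABT-737 replicate 3, of unlike number, correlated at 0.303, so pairing by number is not shown there either. The genes and lists were chosen with earlier results of these data known. The text names all 10 genes, in other lists those that passed with up to the 4 largest changes, and the 8 genes most alike in profile. Some genes that this rule would name are counted in their lists and not reported here by name. Alternatives were DESeq2 1.42.0, its size factors in edgeR, no filter, a minimum of 10 counts in all libraries, a fit of only the 2 groups compared, a replicate block, MUP genes summed, and leaving out each library. Promoter sequences are RefSeq's (GRCm38.p6), and transcripts are from GENCODE M21.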

Additional observations from a re-analysis of the deposited data

Results flagged for a closer look

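Ghr in young liver replicate 1, at 159 CPM, lay apart from the other 3 young livers (229 to 231 CPM) by more than Dixon's 95% critical value. It was 1 of 21 groups of 4 libraries examined, and chance flags about 1 in 20.

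Ghr differed in direction between tissues. All vehicle-treated skin samples lay above all young ones (log2 difference 1.08), whereas all vehicle-treated livers (-1.98) and lungs (-0.80) lay below all young ones. ABT-737-treated skin lay above young skin (1.56) and ABT-737-treated liver below young liver (-1.13). The differences in skin and lung did not pass edgeR's threshold (adjusted p = 0.117 between vehicle and young in skin and 0.224 in lung, and 0.0602 between ABT-737 and young in skin). Those in liver are a description, and no p-value is read from them. The difference between tissues itself was not tested.

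Elovl3 had 43 counts in ABT-737 replicate 4 of the lung and at most 1 in each of the other 9 lungs, and it did not pass the expression filter there. Genes of fat cells, some of them of brown fat, were mostly high in the same library, in a list chosen after the values were seen. Ucp1, the uncoupling protein of brown fat, had 230 counts against 0 to 3, Cidea 234 against 4 to 19, Cox7a1 118 against 7 to 40, Adipoq 427 against 3 to 33 and Plin1 30 against 0 to 4, and Dio2 had 2 against 0 to 3. This library also had the highest lung Ghr (60.1 CPM) and Igf1 (74.8 CPM, beside 70.7 CPM in vehicle replicate 5). The part of fat tissue in these values was not tested.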

How the results depend on the processing

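In kidney, lung and skin, 550 of the genes' fitted differences under an alternative kept direction and call, 32 lost a call, 10 gained one and 14 changed sign, with 0 of the 14 called before or after. In liver, 18 fitted differences moved by over 1.5-fold and 419 did not. Of 7 sign changes in liver, 0 were of a called value and 1 was past the threshold after it, Elovl3 between vehicle and young (-1.15 without vehicle replicate 3). In liver, the 4 genes called between ABT-737 and vehicle became 2 with a minimum of 10 counts in all libraries, only the 2 groups compared or MUP genes summed, and 2 to 5 with 1 library left out. The 5 called between vehicle and young became 2 with at least 10 counts and 3 with MUP genes summed (5 to 7 left out), and the 4 between ABT-737 and young 0 with at least 10 counts (2 to 5). Summing and the count minimum leave fewer genes to test. In kidney, the 1 called between ABT-737 and vehicle became 0 with only the 2 groups compared (0 to 1 left out), the 2 between vehicle and young 1 to 3 left out, and the 0 between ABT-737 and young 1 with no filter. In lung, the 0 between ABT-737 and vehicle and between ABT-737 and young each became 1 with no filter. That was Elovl3, not tested with the filter. The 1 between vehicle and young in lung became 2 with only the 2 groups compared (Igf1 and Socs2) and 0 to 2 with 1 library left out. In skin, the 0 between ABT-737 and young became 1 with DESeq2, no filter or at least 10 counts. The 2 between vehicle and young were 3 with only the 2 groups compared (Elovl3, Ghr and Igf1) and 0 to 3 left out. Cyp7b1, not tested with the filter in skin, was also called higher with vehicle than in young skin by DESeq2 (4.29, adjusted p = 0.0299). In edgeR with no filter it was called too (4.16, adjusted p = 0.0185), with at most 1 count in any young skin sample. Otherwise the cause was not tested.

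With the replicate number as a block, the genes called became 2 between ABT-737 and vehicle and 0 between ABT-737 and young in liver, 0 and, between vehicle and young, 1 in kidney, and 0 between vehicle and young in lung and skin. Pairing of the old samples by number is not shown in liver (correlations -0.04, 0.16 and -0.02), kidney, skin or lung. So few pairs cannot exclude it. The block also ties young samples to old ones of the same number. Under the block Igf1 turned to -0.23 between vehicle and young in kidney, Igfals to 0.56 between vehicle and young in skin and Socs2 to 0.17 between ABT-737 and young in skin.

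With 1 library left out, signs outside liver turned for kidney Igf1 (-0.22 to 0.25) and Igfals (-0.31 to 0.0022) and skin Igfals (-0.88 to 0.0032) between vehicle and young, for lung Igf1 (-1.07 to 0.44) and skin Ghr (-0.093 to 0.76) between ABT-737 and vehicle, and for lung Ghr (-0.58 to 0.52) and skin Socs2 (-0.46 to 0.0039) between ABT-737 and young. All genes called between ABT-737 and vehicle in liver numbered 215, and 44 to 529 with 1 library left out and 54 to 512 under the other alternatives. Liver depth leaves differences in Mup20 and most female-biased genes undetectable.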
